A study of Mus musculus with 12 samples.

Results

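The genes described here encode the constitutive subunits of the 26S proteasome, 32 of the 24062 gene entries in the deposited table, picked by symbol from the 20S core (Psma and Psmb genes), the 19S ATPase ring (Psmc genes) and the rest of the 19S particle (Psmd genes). The immunoproteasome genes Psmb8, Psmb9 and Psmb10 were left out of the set. All 32 were found, and all 32 were above 100 normalised counts in every library (lowest 138.2, highest 3585), so none depended on 1 group to pass the filter of 10 normalised counts in at least 3 libraries that left 11440 tested genes. Bulk mRNA sequencing had been made on wild-type (WT) macrophages grown from C57Bl/6 mouse bone marrow (primary cells, passage 1), in 4 groups of 3 libraries each. The groups were unstimulated cells, cells given C-178, cells given CMA, and cells given C-178 plus CMA, with treatments of 2 h. C-178 is a covalent inhibitor of STING, the adaptor protein of cytosolic DNA sensing, and CMA is a small molecule that activates mouse STING. No dose, sex, age or number of mice stands in the labels used here, and nothing says that the libraries of a group came from separate mice or cultures, so p-values measure only the spread between these libraries, which may be technical.

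The 26S proteasome is the ATP-dependent protease that degrades ubiquitin-tagged proteins. Its 20S core is a barrel of alpha rings, which gate the entrance, around beta rings, of which the subunits encoded by Psmb6, Psmb7 and Psmb5 carry the caspase-like, trypsin-like and chymotrypsin-like activities. The 19S particle binds ubiquitin chains, removes them, and unfolds the substrate with its ring of ATPases. In macrophages, interferon replaces the catalytic beta subunits with the immunoproteasome subunits Psmb8, Psmb9 and Psmb10, which change the peptides made for MHC class I, and when proteasome activity falls the transcription factor encoded by Nfe2l1 raises the constitutive subunit genes together.

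The libraries held 7.049 to 36.438 M reads, recovered as whole numbers from the normalised values, and the deepest were the number 1 libraries of C-178 (28.476 M) and of C-178 plus CMA (36.438 M). In the unstimulated cells all 10 macrophage markers were above 100 normalised counts (median 8372), and the markers of 6 other cell types were much lower in sum, the highest being 853.3 to 1203 for the neutrophil list. Fibroblast markers were also read because part of the extraction text names embryonic fibroblasts. They summed to 674.5 to 712.4 unstimulated, 876.4 to 990.0 with C-178, 860.3 to 1526 with CMA and 464.5 to 983.9 with C-178 plus CMA. Their part in the proteasome values was not tested. Ifnb1 was at 0 in all unstimulated libraries, at 1424 to 2211 with CMA and at 39.98 to 84.04 with C-178 plus CMA, and Hmox1, a gene of the oxidative stress response, was at 9567 to 10030 unstimulated and 29690 to 35380 with C-178. In bulk RNA, fewer cells of a type and less RNA per cell cannot be told apart.

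One library stood apart for the proteasome genes and weighs on every result with C-178 plus CMA. Its library 3 had the highest value of all 12 libraries for 27 of the 32 genes, while 18.4% of all tested genes had their highest value there. Summed over the 32 genes, the normalised counts were 58275 in library 3, 42043 in library 1 and 36347 in library 2 of this group, against 33541 to 34362 unstimulated, 33090 to 36280 with C-178 and 35986 to 38490 with CMA. Library 2 was the lowest of its group for 26 of the 32 genes and lay inside the range of the CMA libraries in the sum. The median coefficient of variation of the 32 genes was 4.8% unstimulated, 10.1% with C-178, 5.01% with CMA and 30.0% with C-178 plus CMA, where the median of all tested genes was 23.7%.

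**Figure D1:**
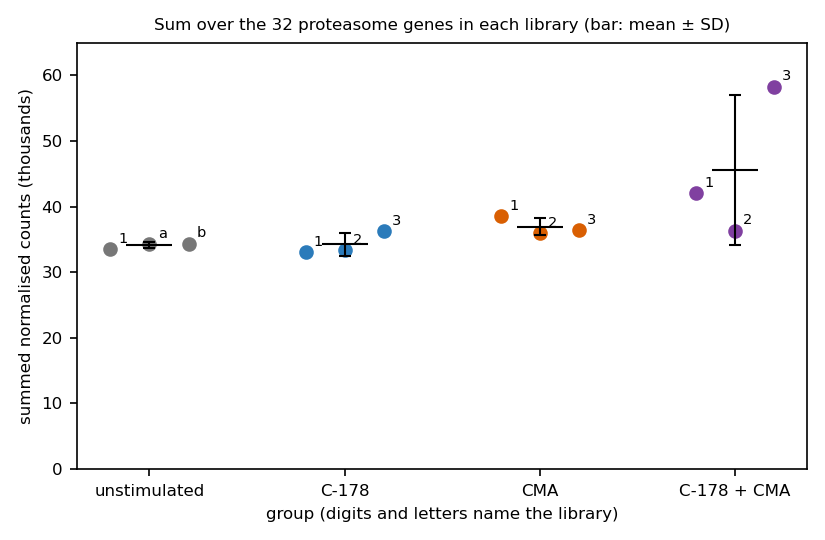
The normalised counts of the 32 genes summed in each library (points, axis from 0) with the group mean and SD (bars, 3 libraries each). The 9 libraries outside the C-178 plus CMA group sit between 33090 and 38490, and that group runs from 36347 to 58275.

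Library 3 also differed in a property of the transcripts. Across 11362 tested genes with an annotated transcript, its difference from the unstimulated mean correlated with transcript length at Spearman rho = -0.44, so that shorter transcripts were higher, and in library 2 of the C-178 group the correlation was 0.44 in the other direction. Genes of 1 library are not independent, so no p is given. The proteasome transcripts are short, with a median length of 1586 bases against 3144 bases for all tested genes, at a GC content of 49.4% against 49.9%. For this reason results with C-178 plus CMA are given below also without library 3 and after removal of the trend with length and GC.

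**Figure D2:**
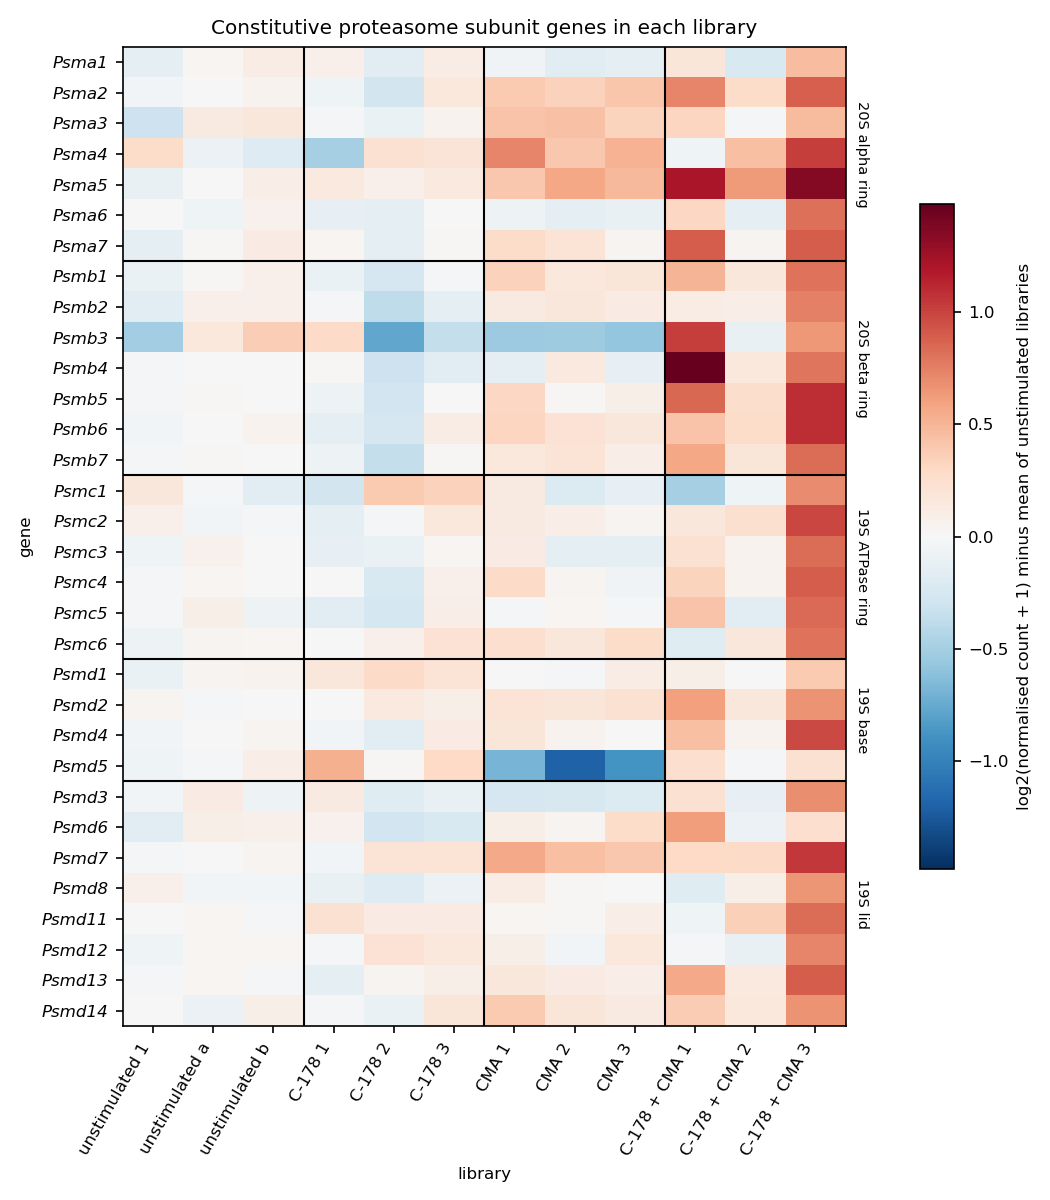
Each row is 1 of the 32 genes and each column 1 library; colour gives log2(normalised count + 1) minus the mean of the unstimulated libraries, and lines part the groups and the subunit roles. The rightmost column, library 3 of C-178 plus CMA, is red in nearly every row (median 0.81), library 1 is mixed (median 0.32), library 2 is near 0 (median 0.09), and Psmd5 is blue in the 3 CMA columns.

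Unstimulated macrophages expressed the whole particle, at levels that differed between subunits. Per kilobase of the longest annotated transcript, the mean unstimulated level was highest for Psmb2, the beta4 subunit, at 1910 normalised counts, followed by Psmc1 (1395), Psma6 (1393), Psma1 (1387) and Psma4 (1329). The catalytic subunit genes were at 1281 for Psmb6, 633.7 for Psmb7 and 199.9 for Psmb5 on the same scale. The lowest value was that of Psmd5, at 72.14. Psmd5 encodes a chaperone that binds the 19S base during assembly and is not part of the finished particle. These per-kilobase levels rest on the longest transcript and may be off where a shorter one is the main product.

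Promoter sequences are shown for Psma5, Psmb4, Psmb5 and Psmd5, 4 of the genes with the largest called changes below. They run from 250 bases before to 50 bases after the RefSeq start (GRCm38.p6) and read 5′ to 3′ on the strand of the gene. Capitals mark TTCCGG, the reverse complement of the ETS core CCGGAA, in Psma5 (chr3:108256676-108256975, plus strand) and Psmb4 (chr3:94886909-94887208, minus strand), the antioxidant response element core TGACNNNGC in Psmb5 (chr14:54617946-54618245, minus strand), and GC boxes, GGGCGG, in Psmd5 (chr2:34870913-34871212, minus strand).
Psma5: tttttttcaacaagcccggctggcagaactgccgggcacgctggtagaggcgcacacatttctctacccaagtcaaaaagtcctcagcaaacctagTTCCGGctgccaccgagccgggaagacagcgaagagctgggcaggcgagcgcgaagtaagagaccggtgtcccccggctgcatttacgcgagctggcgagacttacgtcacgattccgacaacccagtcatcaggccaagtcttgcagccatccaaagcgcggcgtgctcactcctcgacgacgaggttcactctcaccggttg
Psmb4: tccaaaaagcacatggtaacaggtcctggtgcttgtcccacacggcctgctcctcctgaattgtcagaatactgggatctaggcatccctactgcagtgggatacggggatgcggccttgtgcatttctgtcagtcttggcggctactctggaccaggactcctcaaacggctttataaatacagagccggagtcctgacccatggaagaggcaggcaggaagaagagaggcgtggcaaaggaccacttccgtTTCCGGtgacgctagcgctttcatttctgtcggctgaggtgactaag
Psmb5: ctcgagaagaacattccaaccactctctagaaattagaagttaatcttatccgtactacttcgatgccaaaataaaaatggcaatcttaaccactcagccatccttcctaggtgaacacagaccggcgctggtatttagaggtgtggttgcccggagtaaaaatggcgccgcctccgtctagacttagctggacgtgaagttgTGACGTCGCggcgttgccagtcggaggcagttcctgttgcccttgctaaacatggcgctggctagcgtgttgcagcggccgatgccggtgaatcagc
Psmd5: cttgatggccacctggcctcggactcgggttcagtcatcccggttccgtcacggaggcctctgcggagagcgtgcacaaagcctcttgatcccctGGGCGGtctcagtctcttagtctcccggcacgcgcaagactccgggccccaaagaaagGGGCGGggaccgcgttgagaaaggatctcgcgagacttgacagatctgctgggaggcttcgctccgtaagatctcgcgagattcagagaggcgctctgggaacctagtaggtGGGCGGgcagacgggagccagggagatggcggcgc

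The RefSeq table held a promoter for 26 of the 32 genes. Each motif was searched on both strands of the same window in the 26 and in all 27025 genes of the table. CCGGAA was in 14 of the 26 promoters (53.8%) and in 16.7% of all. GGGCGG was in 16 (61.5%, against 38.2%) and CCAAT, the NF-Y box, in 10 (38.5%, against 41.1%). TGACNNNGC was in 4 (15.4%, against 14.0%), those of Psmb5, Psmb6, Psmc6 and Psmd12, and an interferon response element in 2 (7.69%, against 3.99%). In Psma5 the ETS core lay at positions -154 to -149 from the start, in Psmb4 at 4 to 9, and in Psmb5 the antioxidant core TGACGTCGC lay at -47 to -39. Psmd5 held GC boxes at -155 to -150, -97 to -92 and 16 to 21. A match is a description of letters and not of binding.

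The first comparison asked what STING activation by CMA did to these genes. After 2 h Psma5, which encodes the alpha5 subunit, and Psmd7, which encodes the lid subunit Rpn8, were higher, and Psmd5 was lower, by the limma test over all 11440 genes (Benjamini-Hochberg adjusted p under 0.05). No other of the 32 genes passed. Of all tested genes 37.3% were called, 19.4% higher and 17.9% lower, so the 2 higher and 1 lower of 32 were below the background in both directions. The median log2 change of the 32 genes was 0.11 and that of all tested genes -0.01, with 23 genes positive and 9 negative.

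Psmd5 had the largest change of the set. Its normalised counts were 302.6, 310.5 and 338.5 in the unstimulated libraries, 196.1, 138.2 and 170.7 with CMA, 455.7, 320.7 and 389.4 with C-178, and 377.0, 311.3 and 369.8 with C-178 plus CMA. Every CMA library was below every other library. The log2 change with CMA was -0.92 ± 0.16 (SE, n = 3 against 3, adjusted p = 0.000498), a mean level of 0.531 times the unstimulated one, and the call was kept under all 23 alternatives.

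Psma5 had 473.6, 512.9 and 547.3 normalised counts unstimulated and 674.1, 755.9 and 712.2 with CMA. The groups did not overlap, and the log2 change was 0.48 ± 0.16 (adjusted p = 0.0294). The call was lost under 6 of 23 alternatives, among them the removal of the length and GC trend (highest adjusted p 0.103). Psmd7 had 1103, 1118 and 1158 unstimulated and 1656, 1538 and 1485 with CMA, again without overlap, at 0.47 ± 0.17 (adjusted p = 0.0484). It was the least stable of the 3 calls, lost under 14 of 23 alternatives.

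More of the genes were separated between the groups than were called. With CMA 14 of the 32 were higher in every CMA library than in any unstimulated library and 4 were lower, while 31.0% of all tested genes were higher without overlap and 30.9% lower. By role, 4 of the 7 alpha genes and 5 of the 7 beta genes were higher without overlap, with median log2 changes of 0.38 and 0.14. Psma4, Psma3 and Psma2, at 0.54, 0.39 and 0.38, had larger uncalled differences than the other alpha genes. The 6 ATPase genes ranged from -0.06 to 0.23 and the 8 lid genes from -0.22 to 0.47. Psmb3 (-0.54), Psmd3 (-0.22) and Psma6 (-0.11) were lower without overlap and not called. For Psmb3 the groups nearly touched, at 203.7 in unstimulated library 1 and 203.3 in CMA library 2. The spread that limma shares over the groups includes C-178 plus CMA: fitted on the CMA and unstimulated libraries alone, 10 of the 32 genes were called higher and 3 lower, with 54.8% of all tested genes called in that fit. Without library 3 or library 2 of that group the fit over all groups gave 6 and 5 calls, with 45.0% and 41.6% of all tested genes called. Leaving out unstimulated library 1 or a, or CMA library 2 or 3, left 1 call, with 29.0% to 30.2% of all tested genes called. Removing the length and GC trend left 2 higher (Psmb5 and Psmb6) and 3 lower (Psma1, Psma6 and Psmd5), with 43.6% of all tested genes called.

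C-178 alone left no called difference in the set. None of the 32 genes passed the limma test against unstimulated cells, none had an unadjusted p under 0.05, and edgeR and DESeq2 on the recovered reads also called 0, with 0.0962% of all tested genes called by limma. With array weights Psmd5 was called higher, 1 of 32, where 16.2% of all tested genes were called. The median log2 change was -0.03 (all tested genes -0.01). All 7 beta genes were on the negative side, from -0.28 to -0.09, and all overlapped with the unstimulated libraries.

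The smallest p-values with C-178 belonged to Psmd1, the Rpn2 scaffold of the 19S base, then Psmd5 and Psmb2. Psmd1 had 2156, 2374 and 2378 unstimulated and 2576, 2788 and 2643 with C-178, a log2 change of 0.21 ± 0.12 without overlap (adjusted p = 1.0). Psmd5, with the values above, overlapped between the groups, at 0.28 ± 0.16. Psmb2 had 1473, 1729 and 1720 unstimulated and 1612, 1262 and 1489 with C-178, at -0.18 ± 0.16. Besides Psmd1 only Psmd11 (0.16) was higher and Psmd8 (-0.13) lower without overlap, 2 and 1 of 32 against 7.87% and 7.68% of all tested genes.

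With both agents the fit over all libraries put every member on the high side of unstimulated cells. The log2 change was positive for 32 of 32 genes (0.04 to 1.07, median 0.41, all tested genes 0.005), and 11 genes (34.4%) rose past the threshold, with 11.1% of all tested genes called higher. No gene was called lower. The SE and p of changes with both agents rest on 1 spread per gene shared over the 4 groups. The members varied most with both agents (median coefficient of variation 30.0%, against 4.8% to 10.1% in the other groups), so these values may understate the uncertainty. Fitted on the 2 groups alone, only Psma5 was called, with 7.07% of all tested genes called higher. Without library 3, 27 genes were positive and 5 negative, and the same counts held with the length and GC trend removed. Of the 7 beta genes 5 were called (Psmb1, Psmb4, Psmb5, Psmb6 and Psmb7), of the 7 alpha genes 3 (Psma2, Psma5 and Psma7), of the 4 base genes Psmd2, and of the 8 lid genes Psmd7 and Psmd13. None of the 6 ATPase genes was called by limma, with all 6 positive (0.04 to 0.46), and DESeq2 called Psmc2. Without overlap 15 genes were higher and 0 lower, against 16.9% and 17.6% of all tested genes.

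Against C-178 alone, the comparison that shares the inhibitor in both groups, most of the calls lay in the core particle. Again 11 genes rose and none fell (13.5% of all tested genes were called higher), and the median was 0.45 against 0.007. The beta ring gave 6 of these calls from 7 genes (Psmb1, Psmb2, Psmb4, Psmb5, Psmb6 and Psmb7, median 0.68), the alpha ring 3 of 7 (Psma2, Psma5 and Psma7, median 0.49), the base 1 of 4 (Psmd2), the lid 1 of 8 (Psmd13) and the ATPase ring 0 of 6 (median 0.45). Of the ATPase genes edgeR called Psmc2, and DESeq2 called Psmc2, Psmc3, Psmc4 and Psmc5. Psmb3, the remaining beta gene, was at 0.79 ± 0.31 without passing (adjusted p = 0.0713). Without overlap 14 genes were higher and 0 lower, against 16.8% and 17.2% of all tested genes. Whether the beta ring differed from the other roles was not tested. Over all tested genes with a length, the change in this comparison correlated with transcript length at Spearman rho = -0.37. The longest transcripts of the beta genes ran from 766 (Psmb3) to 1970 bases (Psmb1). Those of the ATPase genes ran from 1316 (Psmc5) to 2234 bases (Psmc6). With the length and GC trend removed, Psma2, Psma5, Psmb1 and Psmb5 were called. The part of length in the pattern by role was not tested. These comparisons share the C-178 plus CMA libraries, so their calls are not independent of each other.

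Psma5 had the largest rise against unstimulated cells. With both agents it was at 1181, 792.5 and 1311 normalised counts, above all other libraries, and with C-178 alone at 566.2, 537.5 and 565.2. The log2 change was 1.07 ± 0.16 against unstimulated cells (adjusted p = 0.000252, mean 2.14 times as high) and 0.94 ± 0.16 against C-178 (adjusted p = 0.000695), and both calls were kept under every alternative run.

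Psma2, the alpha2 gene, was at 962.4, 987.1 and 1028 unstimulated, 947.3, 823.6 and 1103 with C-178, 1295, 1255 and 1320 with CMA and 1631, 1194 and 1834 with both agents. The libraries with both agents were above those without CMA, and library 2 was below the CMA libraries. Its change was 0.62 ± 0.15 against unstimulated cells (adjusted p = 0.00977) and 0.68 ± 0.15 against C-178 (adjusted p = 0.00517). Psma7, the alpha4 gene, had 700.9, 784.6 and 844.0 unstimulated, 788.5, 703.1 and 783.2 with C-178, 936.2, 890.1 and 798.4 with CMA and 1437, 798.2 and 1436 with both. Library 2 with both agents was at the level of the unstimulated cells, and the change of 0.61 ± 0.19 (adjusted p = 0.0358) lost its call without library 1 and without library 3. Against C-178 it was 0.64 ± 0.19 (adjusted p = 0.025).

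The catalytic subunit genes were all called with both agents against unstimulated cells and against C-178 in the main fit. Against CMA alone, Psmb6 (limma adjusted p = 0.147) and Psmb7 (limma adjusted p = 0.0845) were not called. Psmb5, which encodes the beta5 subunit with the chymotrypsin-like activity, had 177.9, 181.5 and 179.7 normalised counts unstimulated, 170.7, 147.6 and 180.2 with C-178, 222.5, 181.6 and 190.9 with CMA, and 323.3, 215.6 and 385.0 with both. Libraries 1 and 3 with both agents were the highest of the 12, and library 2 was within the CMA range. The change was 0.73 ± 0.19 against unstimulated cells (adjusted p = 0.0125) and 0.85 ± 0.19 against C-178 (adjusted p = 0.00471). Both calls were lost only in the fit on the 2 groups alone.

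Psmb6, the beta1 gene with the caspase-like activity, was at 993.6, 1016 and 1058 unstimulated, 935.5, 862.7 and 1104 with C-178, 1271, 1188 and 1149 with CMA and 1364, 1237 and 2177 with both. Library 3 was far above the others, and the change was 0.59 ± 0.18 against unstimulated cells (adjusted p = 0.028) and 0.68 ± 0.18 against C-178 (adjusted p = 0.0125). Psmb7, the beta2 gene with the trypsin-like activity, was at 729.1, 741.0 and 735.2 unstimulated, 699.9, 575.2 and 743.9 with C-178, 817.5, 846.7 and 783.8 with CMA and 1096, 835.3 and 1306 with both. The changes were 0.53 ± 0.15 (adjusted p = 0.0238) and 0.67 ± 0.15 (adjusted p = 0.00607). Against unstimulated cells the call of Psmb6 was lost under 6 of 23 alternatives and that of Psmb7 under 7. Both were lost without any 1 of the unstimulated libraries. In both comparisons, both genes lost the call with the length and GC trend removed and with the 2 groups alone. Annotated processed pseudogenes exist for Psmb5, Psmb6 and Psmb7, and how reads shared with such copies were counted is not given, so their levels carry that uncertainty.

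Psmb4, the beta7 gene, was 1 of 4 members with the highest value in library 1 in place of library 3. Its counts were 425.0, 431.7 and 431.5 unstimulated, 434.6, 346.3 and 385.0 with C-178, 390.6, 473.7 and 394.6 with CMA and 1197, 479.8 and 741.1 with both. The change was 0.81 ± 0.24 against unstimulated cells (adjusted p = 0.0277) and 0.96 ± 0.24 against C-178 (adjusted p = 0.0102). Both calls were lost with the 2 groups alone and with the length and GC trend removed. Psmd14, which encodes the deubiquitinase of the lid, was not called by limma in any comparison, and DESeq2 called it higher with both agents against unstimulated cells and against C-178. With CMA, the fit on the 2 groups alone and array weights called it higher. It was at 875.8, 831.2 and 935.7 unstimulated, 861.6, 819.1 and 996.8 with C-178, 1155, 994.7 and 965.5 with CMA and 1138, 976.7 and 1398 with both, a change of 0.40 ± 0.14 against unstimulated cells (adjusted p = 0.0637).

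Psmb1, the beta6 gene, was at 1030, 1119 and 1167 unstimulated and 1559, 1237 and 1927 with both agents (0.49 ± 0.15, adjusted p = 0.03). Psmd2, the Rpn1 scaffold of the base, was at 2213, 2108 and 2150 unstimulated and 3294, 2415 and 3424 with both (0.48 ± 0.13, adjusted p = 0.0163). Libraries 1 and 3 were again the high ones. Psmd13, the lid subunit Rpn9, was at 695.6, 713.6 and 696.0 unstimulated and 1037, 776.8 and 1302 with both (0.53 ± 0.16, adjusted p = 0.0254). Psmd7 was at 1378, 1369 and 2323 with both (0.54 ± 0.17, adjusted p = 0.0405), and 0.29 ± 0.11 without library 3. Psmb2, called against C-178 alone, was at 1771, 1753 and 2735 with both (0.50 ± 0.16, adjusted p = 0.0394), where library 3 was high and libraries 1 and 2 were just below the CMA range of 1777 to 1838.

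Uncalled members, among them the ATPase genes, were also high in library 3. Psmc2, the Rpt1 gene, was at 1306, 1200 and 1210 unstimulated and 1385, 1459 and 2454 with both agents (0.46 ± 0.18, adjusted p = 0.0834). Psmc4, the Rpt3 gene, was at 874.3, 911.2 and 894.6 unstimulated and 1125, 922.4 and 1661 with both (0.42 ± 0.18, adjusted p = 0.116). In both genes the groups did not overlap. Psmc1, the Rpt2 gene, ran from 1568 in library 1 to 3585 in library 3 around an unstimulated mean of 2219, the widest range of the ring, and its change was 0.04 ± 0.25. Psmd4, the ubiquitin receptor Rpn10, was at 946.5, 978.1 and 1004 unstimulated and 1327, 1008 and 1913 with both, and missed the threshold at 0.49 ± 0.18 (adjusted p = 0.0738).

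**Figure D3:**
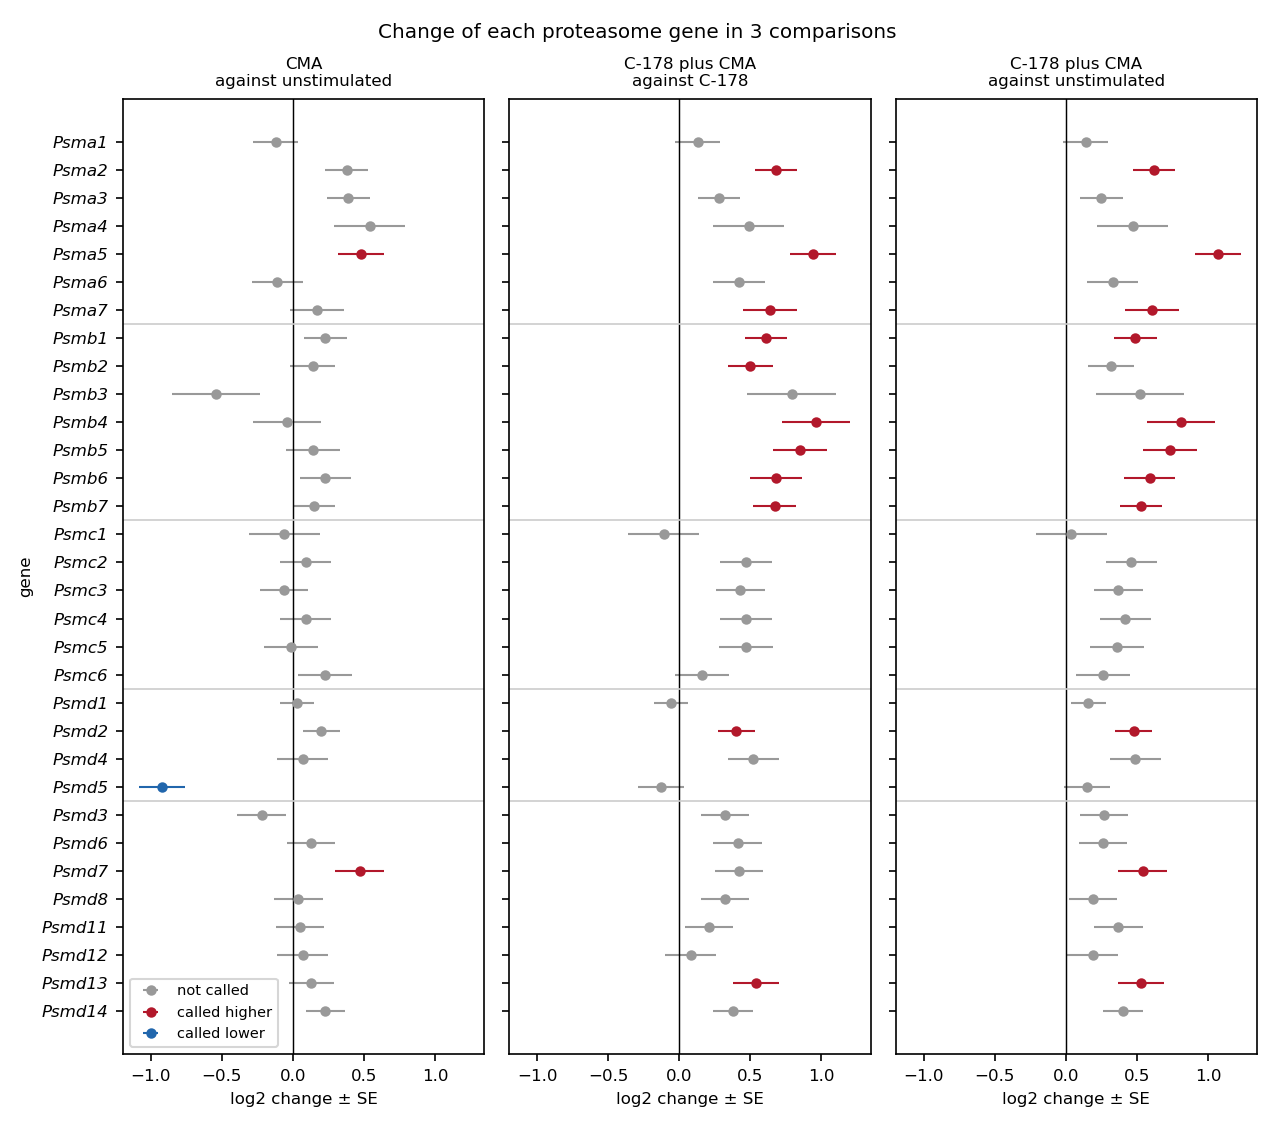
Log2 change with its SE for each of the 32 genes in 3 comparisons, coloured by the limma call (red higher, blue lower, grey not called), in the order of the roles. Psmd5 is alone in blue at -0.92 with CMA, and the beta genes sit between 0.50 and 0.96 in the middle panel, where cells given both agents are set against C-178.

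The size of these changes depended on library 3. Without it, the median over the 32 genes was 0.19 against unstimulated cells and 0.24 against C-178, and the calls went from 11 to 6 (Psma2, Psma5, Psmb4, Psmb5, Psmb6 and Psmd2) and from 11 to 7 (Psma2, Psma5, Psmb1, Psmb4, Psmb5, Psmb6 and Psmb7). Of all tested genes 13.7% and 14.7% were then called higher (11.1% and 13.5% with all libraries). Without library 3 Psma5 changed by 0.92 ± 0.15 against unstimulated cells, Psmb5 by 0.55 ± 0.17 and Psmb6 by 0.35 ± 0.12. Without library 2 in its place, 20 and 23 genes were called, all of them higher. The share of all tested genes called was 29.2% and 36.5% (21.5% and 26.1% with all libraries), with 14.6% and 18.5% called higher. Leaving out an unstimulated library reduced the 11 calls against unstimulated cells to 4 (library 1) or 3 (library a or b), and leaving out C-178 library 2 reduced those against C-178 to 6. The share of all tested genes called higher was 7.77% to 8.28% in the former fits and 9.23% in the latter.

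With the length and GC trend removed, 4 genes were called against unstimulated cells (Psma2, Psma5, Psmb5 and Psmd2, median 0.22) and 4 against C-178 (Psma2, Psma5, Psmb1 and Psmb5, median 0.16). Psma2, Psma5 and Psmb5 were thus called in both. In both fits 12.3% of all tested genes were called higher, near the share of the members. Fitted on the 2 groups alone, with their own spread, 1 gene was called in each. The share of all tested genes called higher was then 7.07% against unstimulated cells and 6.45% against C-178. The results above took no account of library numbers. As an alternative, libraries of C-178 and C-178 plus CMA with the same number were taken as pairs, in a fit that also blocked the CMA libraries by number. With this block 10 genes were called against C-178, with Psmb2 and Psmd2 lost and Psmb3 gained, where 12.2% of all tested genes were called higher.

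Adding C-178 to CMA was compared with CMA alone, the comparison that asks what the inhibitor changed in stimulated cells. Psmd5, Psmb3, Psmb4, Psmb5 and Psma5 were higher with both agents and none of the 32 was lower, with 10.6% of all tested genes called higher and 13.5% lower. The median log2 change was 0.33 (all tested genes 0.004), and 30 of 32 genes were positive. Without library 3 24 were positive, and with the length and GC trend removed 27. Without overlap 6 genes were higher and 0 lower, against 17.0% and 18.5% of all tested genes.

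Psmd5 changed most, by 1.07 ± 0.16 (adjusted p = 0.000766). With both agents its mean was 352.7, near the 317.2 of unstimulated cells, and 2.10 times that of CMA alone (168.3). This call was kept under all 24 alternatives, including those without library 3 (1.04 ± 0.18). Psmb3, the beta3 gene, was at 203.7, 326.0 and 375.8 unstimulated, 355.0, 171.6 and 229.6 with C-178, 201.1, 203.3 and 196.4 with CMA and 596.5, 269.9 and 455.3 with both. The 3 CMA libraries were close together and below the libraries with both agents. Unstimulated libraries ran from just above the CMA libraries into the range with both agents, and C-178 libraries from below the CMA libraries into that range. The change of Psmb3 with both agents against CMA was 1.06 ± 0.31 (adjusted p = 0.0244).

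Psmb4 changed by 0.85 ± 0.24 (adjusted p = 0.0231), Psmb5 by 0.60 ± 0.19 (adjusted p = 0.0356) and Psma5 by 0.59 ± 0.16 (adjusted p = 0.0195), from the library values above. The groups overlapped for Psmb5. Without library 3 only Psmb4 (0.86 ± 0.27, adjusted p = 0.0394) and Psmd5 were called and the median fell to 0.11, and without library 2 the count was 19, with 41.2% of all tested genes called (24.1% with all libraries). Leaving out CMA library 3 left 1 of the 5 calls, CMA library 2 left 3 and CMA library 1 left 2. Without library 1 of the group with both agents Psmd5 was kept and Psmd11 was called in addition. With the length and GC trend removed 7 genes were called, 4 of them among these 5, where 11.4% of all tested genes were called higher.

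The interaction, that is the change with CMA in the presence of C-178 minus the change with CMA in its absence, was called for 1 of the 32 genes, with 9.94% of all tested genes called (3.95% higher and 5.99% lower). That gene was Psmd5, at 0.79 ± 0.23 (adjusted p = 0.0472). Its CMA change was -0.92 without the inhibitor and -0.13 with it. The adjusted p over the 22 alternatives was 0.0141 to 0.127. The call was lost under 11 of them, 9 of which left out 1 library, and held with the length and GC trend removed. The median interaction of the set was 0.38 (all tested genes 0.007), 0.19 without library 3 and 0.15 with the trend removed. Psmb3 (1.34 ± 0.43, adjusted p = 0.0629), Psmb4 (1.00 ± 0.34, adjusted p = 0.0738) and Psmb5 (0.71 ± 0.27, adjusted p = 0.0932) had large values that did not pass, without library 2 of C-178 plus CMA 15 genes passed, with the share of all tested genes at 32.3%, and without library 1 of C-178 2 did.

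**Figure D4:**
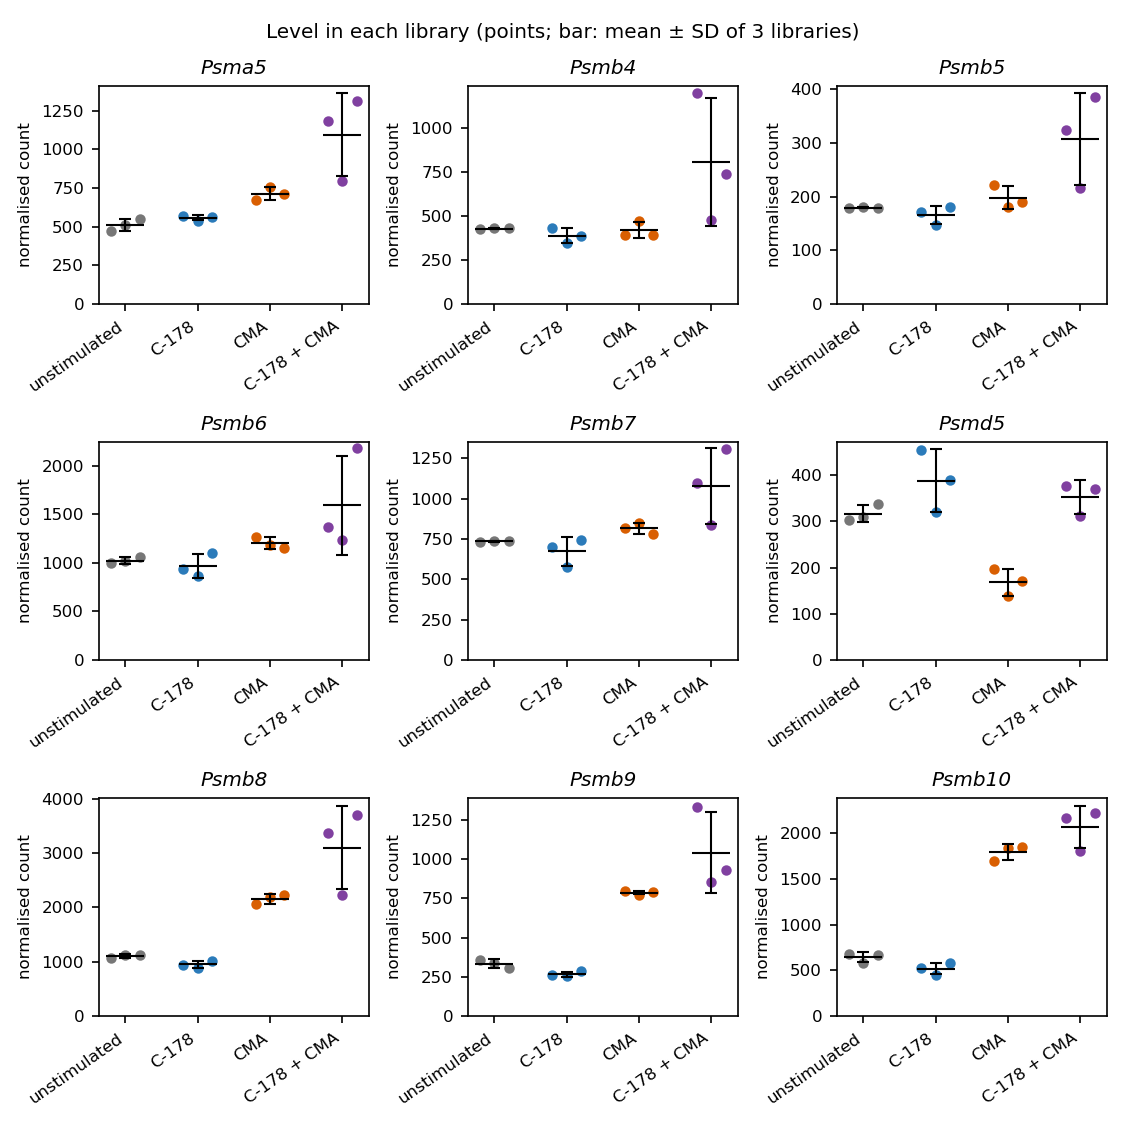
Normalised counts in each library (points) with mean and SD (bars, 3 libraries) for 6 of the constitutive genes and, in the bottom row, the immunoproteasome genes; each axis starts at 0. Psmd5 drops to 138.2 to 196.1 with CMA, and Psmb8, Psmb9 and Psmb10 are separated between the groups with and without CMA in all libraries.

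The immunoproteasome genes and the genes of the PA28 activator all rose with CMA. Psmb8, Psmb9, Psmb10, Psme1 and Psme2 were higher than in unstimulated cells by 0.84 to 1.48, 5 of 5. Of the 32 constitutive genes 2 were called higher, and of all tested genes 19.4%. Psmb10, the counterpart of Psmb7, had 678.9, 582.8 and 670.0 unstimulated, 526.0, 453.2 and 579.7 with C-178, 1693, 1843 and 1848 with CMA, and 2171, 1809 and 2225 with both. Psmb9, the counterpart of Psmb6, had 359.6, 336.8 and 306.9, then 263.5, 254.5 and 284.8, then 796.1, 773.7 and 792.9, then 1336, 853.9 and 933.6 in the same order of groups. Every library with CMA was above every library without it in both genes.

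Psmb8, the counterpart of Psmb5, had 1064, 1128 and 1126 unstimulated, 944.1, 892.8 and 1013 with C-178, 2055, 2185 and 2226 with CMA and 3362, 2235 and 3696 with both. With CMA the changes were 1.48 ± 0.13 for Psmb10 (adjusted p = 7.01e-07), 1.24 ± 0.15 for Psmb9 (adjusted p = 2e-05) and 0.96 ± 0.16 for Psmb8 (adjusted p = 0.000238), where their constitutive counterparts changed by 0.15, 0.23 and 0.14 and were not called. The difference between counterparts was not tested. With both agents all 5 were also higher than with C-178 (0.93 to 1.99) and than in unstimulated cells (0.86 to 1.68). Of all tested genes 13.5% and 11.1% were called higher in these comparisons, and 10.6% against CMA alone. Against CMA alone Psmb8 (0.49 ± 0.16, adjusted p = 0.0376) and Psme2 (0.51 ± 0.15, adjusted p = 0.0284) were higher, and both calls were lost without library 3 and with the length and GC trend removed, that of Psmb8 also with the replicate block. Psme2 was at 1120, 861.7 and 901.6 unstimulated, 786.3, 903.4 and 919.7 with C-178, 1614, 1824 and 1711 with CMA and 2336, 2049 and 3030 with both. None of the 5 was called by limma in the interaction or with C-178 alone, where 9.94% and 0.0962% of all tested genes were called.

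Other genes of the pathway were read from 7 further lists. Among the 7 tested assembly chaperones none was called with CMA, where 37.3% of all tested genes were, and 3 were higher with both agents against C-178, where 13.5% were. Pomp, the chaperone that completes the core, was at 1297, 1155 and 1257 unstimulated, 924.8, 1183 and 1331 with C-178, 1470, 1273 and 1334 with CMA and 1649, 1416 and 2591 with both (0.68 ± 0.19, adjusted p = 0.0196). Psmg1 and Psmg3 encode chaperones of the alpha ring. Psmg1 was at 101.1, 85.39 and 101.9, then 65.62, 73.78 and 62.48, then 107.1, 96.71 and 80.76, then 89.85, 91.39 and 128.3 in the same order (0.59 ± 0.19, adjusted p = 0.0318), a call lost with the replicate block. Psmg3 was at 45.61, 46.58 and 60.74, then 52.35, 39.15 and 49.40, then 56.04, 55.26 and 49.56, then 145.9, 51.40 and 90.15 (0.90 ± 0.30, adjusted p = 0.0406), with overlap. Its call was lost under 14 of 24 alternatives, among them removal of the length and GC trend. Of the 5 other 19S and associated factors only Uchl5, a deubiquitinase of the proteasome, was called. This was with CMA, where 19.4% of all tested genes were called higher. Uchl5 was at 299.5, 370.2 and 372.0 unstimulated, 332.8, 352.3 and 401.0 with C-178, 547.2, 519.1 and 429.5 with CMA and 395.5, 388.4 and 606.6 with both, and its change with CMA was 0.52 ± 0.18 (adjusted p = 0.0337). The call was lost under 8 of 23 alternatives, among them TMM and quantile scaling and removal of the length and GC trend.

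Of the 4 other activator and inhibitor genes, 2 rose with CMA, where 19.4% of all tested genes did. Psme4, which encodes the PA200 activator, went from 1582, 1626 and 1640 to 2457, 2720 and 2918, with 1831, 2090 and 1851 under C-178 and 2445, 2644 and 1707 under both (0.74 ± 0.15, adjusted p = 0.00139) and AI314180, the Ecm29 gene, from 1365, 1308 and 1176 to 2420, 2653 and 2711, with 1164, 1709 and 1482 under C-178 (1.02 ± 0.17, adjusted p = 0.00032). The CMA libraries of both genes were above the unstimulated ones. With C-178 plus CMA, AI314180 was at 1242, 1821 and 1904, lower than with CMA alone (-0.67 ± 0.17, adjusted p = 0.0141), a call lost with the length and GC trend removed. Psmf1, the gene of the inhibitor PI31, was at 274.4, 281.8 and 261.3 unstimulated, 290.1, 227.4 and 223.8 with C-178, 271.9, 292.1 and 299.2 with CMA and 404.5, 301.3 and 313.2 with both, a call against C-178 (0.46 ± 0.15, adjusted p = 0.0369) that was lost with the replicate block. Psme3 was not called by limma in any comparison.

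Among the 4 genes of transcription and processing of the Nfe2l1 factor, Nfe2l1 and Nfe2l2 were lower in 1 or more comparisons and none was higher. Nfe2l1 had 3662, 3504 and 3168 unstimulated and 2474, 2595 and 2597 with CMA, with 3064, 3400 and 3240 under C-178 and 2563, 2652 and 3345 under both (-0.43 ± 0.12, adjusted p = 0.0129). The call was lost with the length and GC trend removed. Nfe2l2, the oxidative stress regulator, had 4010, 3905 and 4196 unstimulated, 3682, 4521 and 4076 with C-178, 3405, 3255 and 3058 with CMA and 1714, 2486 and 2980 with both. Its change with both agents was -0.79 ± 0.17 against unstimulated cells and -0.81 ± 0.17 against C-178 (adjusted p = 0.00353 and 0.00306), kept under every alternative run. Ddi2 and Ngly1, the protease and the glycanase that process the factor, were not called by limma.

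Of the 8 ubiquitin receptor and p97 genes, Nploc4, a cofactor of p97, fell with CMA and was higher with both agents than with CMA, as was Psmd5. It was at 1029, 1121 and 1086 unstimulated, 1323, 1120 and 1164 with C-178, 801.0, 864.5 and 840.7 with CMA and 1337, 1185 and 1236 with both. The changes were -0.37 ± 0.11 with CMA (adjusted p = 0.0159), a call lost with the length and GC trend removed, and 0.58 ± 0.11 for both against CMA (adjusted p = 0.00262). Ubqln2, a shuttle receptor, was at 472.9, 424.6 and 412.5 unstimulated, 522.1, 424.6 and 479.5 with C-178, 413.7, 380.9 and 429.5 with CMA and 331.6, 398.4 and 287.3 with both, and its lower call against C-178 (-0.49) was lost with the replicate block.

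Ubiquitin itself comes from several genes. Rps27a, which encodes ubiquitin fused to a ribosomal protein, was at 1622, 1867 and 1892 unstimulated, 1628, 1177 and 1733 with C-178, 2054, 1662 and 1797 with CMA and 4130, 2048 and 2026 with both. It was higher with both agents than with C-178 (0.79 ± 0.24, adjusted p = 0.025), and the call was lost with the length and GC trend removed. The activating enzyme gene Uba6 was in the same order at 235.7, 277.7 and 289.8, then 308.4, 371.9 and 299.3, then 384.0, 453.9 and 451.5, then 249.7, 335.6 and 132.9. It was higher with CMA (0.68), a call lost under 13 of 23 alternatives, and lower with both than with CMA (-0.94). Its calls and the interaction were lost with the length and GC trend removed. The interaction was called lower for Uba6 (-1.22) and AI314180 (-0.83). Ubb was under the filter, and Psmb11, the thymus subunit, was at 0 in every library.

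The 32 genes did not follow 1 profile. Over the 12 libraries, the correlation of a gene with the mean of the other members was highest for Psmd4, the ubiquitin receptor of the base (r = 0.99), Psmc4 (0.97) and Psmb6, Psmd13 and Psmb5 (0.96 each), and lowest for Psmd5 (0.12) and Psmc1 (0.28). Without libraries 3 and 1 of C-178 plus CMA, the 2 farthest from the median profile, r over 10 libraries was 0.9 for Psmd4, 0.93 for Psmb6 and 0.9 for Psmb5, but -0.05 for Psma6 and -0.57 for Psmd5. Among the genes outside the set most like the mean profile were Mrps18a (r = 0.967), Cops6, Ap1s1, BC004004, Cyba, Coa3, Tmed3, Uqcrc1 and Lamtor2 (0.96), which had r of 0.61 to 0.86 over the 10 libraries. These values are descriptions over points that share libraries and depth.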

How the data were processed

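The authors deposited 1 table of normalised counts, a signal per gene and library, for 12 libraries. Per the submitters' processing notes, mm10, Bowtie2 2.2.1 and limma 3.18.13 were used. Counter, annotation and strand setting were not given in the sources used here. In the header stand Cook's distances, in 12 columns not used here. Dividing by the smallest step of each column gave whole numbers for 100% of values (tolerance 0.01), used as reads. Of the unstimulated columns 2 share 1 heading and are called a and b.

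Log2(normalised count + 1) was fitted with limma 3.58.1 (R 4.3.3; lmFit and eBayes with trend, 1 spread per gene over the 4 groups) for genes above 10 in at least 3 libraries, with Benjamini-Hochberg adjustment over 11440 genes per comparison and calls under 0.05. A fold on this scale understates changes of low genes. Alternatives were TMM and quantile scaling, pseudocounts of 0.5 and 5, no filter and a filter at 50, edgeR 4.0.16 and DESeq2 1.42.0 on recovered reads, the 2 groups alone, array weights, removal of a spline trend with length and GC, a replicate block, and each library left out. The fit was also run on simulated counts with an equal spread in all groups and genes changed only with CMA. That run does not cover the wider spread of the C-178 plus CMA group. Length, GC and overlaps came from GENCODE M21. Exons of 8 members overlap another gene (Psma4, Psma5, Psmb5, Psmb7, Psmc3, Psmd1, Psmd3 and Psmd13), so their counts carry that uncertainty. Tables and figures were made with Python 3.11.15 (pandas 2.3.3, matplotlib 3.10.9, numpy 2.4.6).

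Deviations from group means correlated between same-numbered libraries of the groups given C-178 alone and with CMA at 0.45, 0.427 and 0.263, all above 0.1. These were taken as paired in the replicate block only, and the main fit is unpaired. The number 1 libraries of these groups were also the deepest (28.476 and 36.438 M reads), and whether depth made the correlations was not tested. Other pairs of groups did not reach 0.1 in every pair. Members and lists were chosen with earlier results of these data known. Values are given for the catalytic genes and Psmd14, for up to 6 called members with the largest change per comparison (or the 3 with the smallest p where none was called), for members called in the interaction, for up to 4 called genes per other list and always Psmb8, Psmb9 and Psmb10, and for the 10 genes most like the mean profile. Some genes that this rule names are left out of the text.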

Additional observations from a re-analysis of the deposited data

Results flagged for a closer look

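The test of the difference between 2 effects called Psmd5 alone among the 32 genes: the change with CMA differed with and without C-178 by 0.79 on the log2 scale (SE 0.23, adjusted p = 0.0472). Over all tested genes 3.95% were called higher and 5.99% lower, so 1 of 32 is not above the background. The call was lost under 11 of 22 alternatives. The 3 CMA libraries, at 138.2 to 196.1 normalised counts, were below the 3 unstimulated libraries, at 302.6 to 338.5, while with C-178 present the libraries with CMA (311.3 to 377.0) and without it (320.7 to 455.7) overlapped.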

How the results depend on the processing

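With CMA against unstimulated cells, 3 members were called; 1 was called with quantile scaling, 13 with the 2 groups alone, 13 with array weights, 5 with the length and GC trend removed and 1 to 6 with a library left out. The share of all tested genes called was 37.3% in the main fit. It was 40.4% with quantile scaling, 54.8% with the 2 groups alone, 64.5% with array weights and 43.6% with the trend removed. With C-178 alone the count was 0, and 1 with array weights, where 16.2% of all tested genes were called. For C-178 plus CMA against CMA the count of 5 became 8 with DESeq2, 2 with the 2 groups alone and 1 to 19 with a library left out, and the median of 0.33 became 0.11 to 0.46. Against C-178 the 11 calls became 18 with DESeq2, 1 with the 2 groups alone, 4 with the trend removed and 6 to 23 with a library left out; the median of 0.45 became 0.16 with the trend removed and 0.24 to 0.58 with a library left out. Against unstimulated cells the 11 became 6 with quantile scaling, 1 with the 2 groups alone, 4 with the trend removed and 3 to 20 with a library left out; the median of 0.41 became 0.22 with the trend removed and 0.19 to 0.57. The interaction count of 1 became 0 with quantile scaling or no filter, 3 with DESeq2, 5 with array weights and 0 to 15 with a library left out, and its median of 0.38 became 0.15 with the trend removed and 0.19 to 0.52. Higher calls over all tested genes with the 2 groups alone were 2.28% against CMA, 6.45% against C-178 and 7.07% against unstimulated cells. With the trend removed they were 12.3% against C-178 and against unstimulated cells. With DESeq2 they were 12.4% against CMA, 16.0% against C-178 and 6.7% in the interaction, which had 12.6% with array weights. The cause of the changed counts was not tested. The replicate block was fitted on all groups except the unstimulated one, so the CMA libraries were blocked by number too. Their deviations correlated with those of C-178 plus CMA at only -0.141, 0.18 and -0.162, so this block is not a pairing for them. In this fit 5 members were called against CMA and 10 against C-178, with 8.63% and 12.2% of all tested genes called higher. No paired analysis was possible for comparisons with unstimulated cells because 2 of their columns share a heading. TMM scaling moved no median of all tested genes by more than 0.044; quantile scaling moved that of CMA against unstimulated cells from -0.01 to -0.115 and the median of the 32 genes to -0.07. Each group has 3 libraries, which limits every test, and each member held over 100 normalised counts in every library.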
